A study of Saccharomyces cerevisiae with 4 samples.

Results

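The genes that encode the pyruvate decarboxylases of budding yeast (PDC1, PDC5 and PDC6), the regulator PDC2 and the aldehyde dehydrogenases ALD2, ALD3, ALD4, ALD5 and ALD6 were followed in poly(A) RNA of Saccharomyces cerevisiae. These 9 genes were taken by symbol from a deposited table of 7126 genes, and all 9 passed the filter on low values. The groups were the T4V mutant, in which threonine 4 of the repeated heptad in the C-terminal domain of the largest RNA polymerase II subunit is replaced by valine, and the wild type (WT), with 2 libraries each. No source used here gives the strain background, the medium, the growth phase or whether replicates came from separate cultures, so the p-values measure only the spread between these libraries, which may be technical. The columns give the genotype but no replicate number, and the libraries of each genotype are called A and B. The genotype given for each library is that of its label, since RPKM, a read density normalised to gene length and library depth, does not show the base change. Library sizes recovered from the RPKM steps ran from 3355000 to 4261000 reads.

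Pyruvate decarboxylase turns pyruvate into acetaldehyde, the step at which fermentation leaves glycolysis. Acetaldehyde is then either reduced to ethanol by alcohol dehydrogenases or oxidised to acetate by aldehyde dehydrogenases, and acetate feeds cytosolic acetyl-CoA. Pdc1 is the main decarboxylase, Pdc5 a close relative that is known to take over when PDC1 is lost, and Pdc6 a rarely used form. Ald6 is the main cytosolic, NADP-dependent acetate-forming enzyme, Ald4 and Ald5 are mitochondrial, and Ald2 and Ald3 are cytosolic enzymes known for induction by stress and for a role in beta-alanine formation.

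The coding sequences of the relatives are shown first, because reads from identical stretches cannot be assigned to 1 gene. The opening 90 coding bases of the decarboxylase genes are printed from the R64 assembly, and capitals mark positions at which the genes are not all alike.
PDC1: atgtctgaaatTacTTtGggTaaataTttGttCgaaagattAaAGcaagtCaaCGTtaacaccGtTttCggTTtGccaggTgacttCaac
PDC5: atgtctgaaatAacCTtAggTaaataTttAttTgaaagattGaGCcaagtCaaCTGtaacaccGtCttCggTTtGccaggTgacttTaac
PDC6: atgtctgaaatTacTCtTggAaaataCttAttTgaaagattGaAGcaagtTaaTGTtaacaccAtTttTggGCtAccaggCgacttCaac
They differ at 23 of these 90 positions. Over the 1692 coding bases of each gene, PDC1 and PDC5 were 87.2% identical, PDC1 and PDC6 75.0%, and PDC5 and PDC6 73.5%. The longest stretch that PDC1 and PDC5 share is 65 bases, and it is shown because it is where their reads are hardest to separate.
PDC1 and PDC5 shared stretch: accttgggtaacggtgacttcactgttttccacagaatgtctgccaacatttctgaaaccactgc

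ALD2 and ALD3 lie in tandem on the minus strand of chromosome XIII, ALD2 at 601562 to 603082 and ALD3 at 599352 to 600872, with 689 bases between them. They were 91.8% identical over 1521 coding bases, and their first 329 coding bases were the same letter for letter. The coding bases 301 to 390 are printed to show where the shared part ends, with capitals at the 16 positions that differ.
ALD2: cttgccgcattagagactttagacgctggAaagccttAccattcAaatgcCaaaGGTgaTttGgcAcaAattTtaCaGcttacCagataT
ALD3: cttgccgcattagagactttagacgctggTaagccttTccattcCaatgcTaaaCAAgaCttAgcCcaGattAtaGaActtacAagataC
Of all windows of 50 bases in ALD2 or in ALD3, 40.4% occur more than once in the genome, and the share is 46.6% for windows of 36 bases and 22.5% for windows of 100 bases. For PDC1 and PDC5 the share was 2.35% and 2.72% at 36 bases, 0.974% each at 50 bases and 0 at 100 bases, and for PDC2, ALD4, ALD5 and ALD6 it was 0 at each window length tried. The read length and the handling of reads with several matches are not known here, so the split of reads between ALD2 and ALD3 is uncertain.

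ALD2, ALD3 and ALD5 were higher in T4V, and no member was called lower. PDC1, PDC5, PDC6, PDC2, ALD4 and ALD6 did not pass the test. The call required p under 0.05 after Benjamini-Hochberg adjustment, from limma fitted to log2(RPKM + 1) over the 5935 genes that reached 1 RPKM in 2 or more libraries. The 3 members called higher of 9 stand beside 11.7% of all genes tested called higher and 6.25% called lower, or 17.9% in either direction. The median log2 change (T4V minus WT on the log2(RPKM + 1) scale) of the 9 members was 0.21, against 0.07 over all genes tested. Across all genes 692 were called higher and 371 lower, but 511 and 503 after median-of-ratios scaling and 453 and 448 after quantile normalization.

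**Figure D1:**
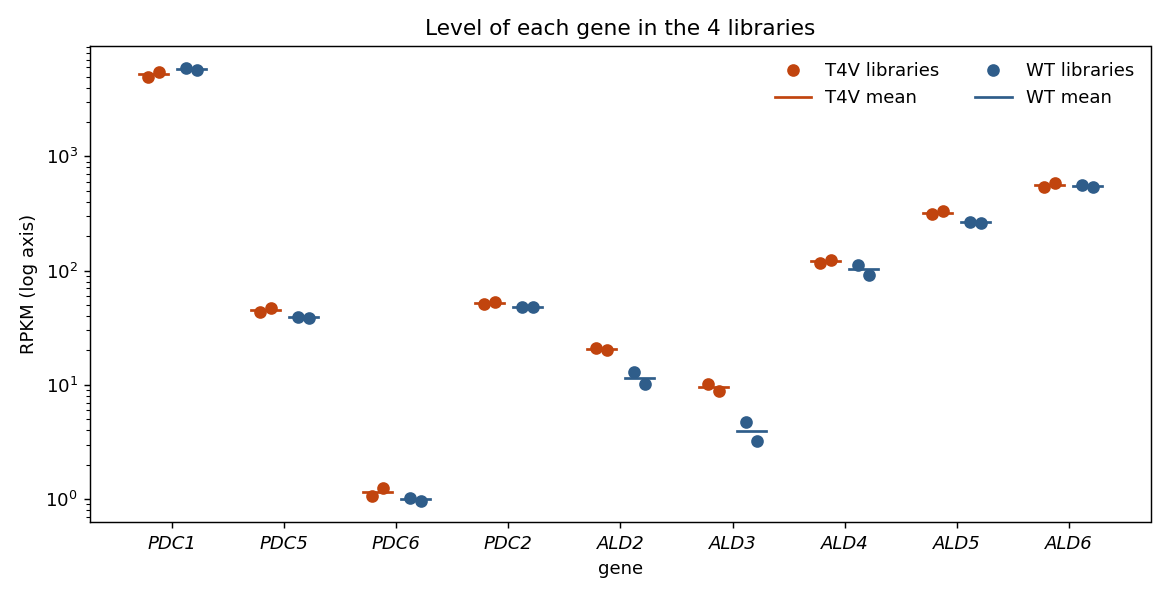
RPKM of each gene on a log axis, with a point for each library, T4V to the left of WT, and a short line at the mean of the 2 libraries. PDC1 stands highest and PDC6 lowest, near 1 RPKM, and the T4V points of ALD2 and ALD3 lie clear above the WT points.

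ALD2 had 21.0 and 20.2 RPKM in T4V libraries A and B, against 12.9 and 10.3 RPKM in WT libraries A and B. Both T4V libraries were above both WT libraries, and the WT libraries differed more from each other than the T4V libraries did. The log2 change of ALD2 was 0.79 ± 0.16 (SE, n = 2 each), with a 95% interval of 0.39 to 1.18 (limma, adjusted p = 0.0207). These values rest on 107 and 131 reads in T4V libraries A and B and on 80 and 57 reads in WT libraries A and B.

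ALD3, its tandem partner, had 10.2 and 8.80 RPKM in T4V libraries A and B, against 4.69 and 3.24 RPKM in WT libraries A and B. It was the lowest of the aldehyde dehydrogenase genes in every library, and its groups did not overlap. The log2 change of 1.09 ± 0.26 (SE, n = 2 each) was the largest among the members, with a 95% interval of 0.48 to 1.71 (limma, adjusted p = 0.0311). The reads behind it were 52 and 57 in T4V and 29 and 18 in WT. Fold changes on the log2(RPKM + 1) scale understate the change of low genes, and the ratio of mean RPKM, T4V over WT, was 2.40 for ALD3 and 1.78 for ALD2.

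Because the split between the tandem genes is uncertain, their RPKM were also summed, a choice made after the shared bases were seen. The sum was 31.2 and 29.0 RPKM in T4V libraries A and B, against 17.6 and 13.5 RPKM in WT libraries A and B. The summed pair was higher in T4V by a log2 change of 0.92 ± 0.16 (SE, n = 2 each; limma, adjusted p = 0.0113). This value does not depend on how shared reads were divided between the 2 genes. It could differ if such reads were dropped or counted in both genes, and the sum was fitted with the reported settings only. The ratio of ALD2 to ALD3 was 2.06 and 2.30 in T4V libraries A and B, against 2.76 and 3.17 in WT libraries A and B.

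Without T4V library A, T4V library B or WT library B, neither ALD2 nor ALD3 was called. In such a fit 1 genotype has a single library, which is assumed to vary like the other genotype, and the adjusted p rests on 1 library fewer. ALD2 then had log2 changes of 0.76, 0.81 and 0.63 in that order, with limma adjusted p of 0.169, 0.154 and 0.0687, and ALD3 had 1.00, 1.19 and 0.88, with limma adjusted p of 0.188, 0.149 and 0.0925. ALD3 also lost its call after quantile normalization (log2 change 0.89, adjusted p = 0.0709 by limma), and both lost it without the variance trend of the fit (adjusted p = 0.0535 for ALD2 and 0.0514 for ALD3 by limma).

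ALD5, a mitochondrial aldehyde dehydrogenase gene on chromosome V at 304030 to 305592, had 310.4 and 334.5 RPKM in T4V libraries A and B, against 268.3 and 261.5 RPKM in WT libraries A and B. The T4V libraries were both above the WT libraries, by a smaller factor than for ALD2 or ALD3 but on far more reads, 3856 in T4V and 3200 in WT. The log2 change was 0.28 ± 0.07 (SE, n = 2 each), with a 95% interval of 0.12 to 0.44 (limma, adjusted p = 0.0338). The call was lost after median-of-ratios scaling (log2 change 0.22, limma adjusted p = 0.0763), after quantile normalization (0.23, adjusted p = 0.0738), without the variance trend (0.28, adjusted p = 0.130) and without any 1 library (0.23 to 0.34, adjusted p = 0.0717 to 0.203).

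**Figure D2:**
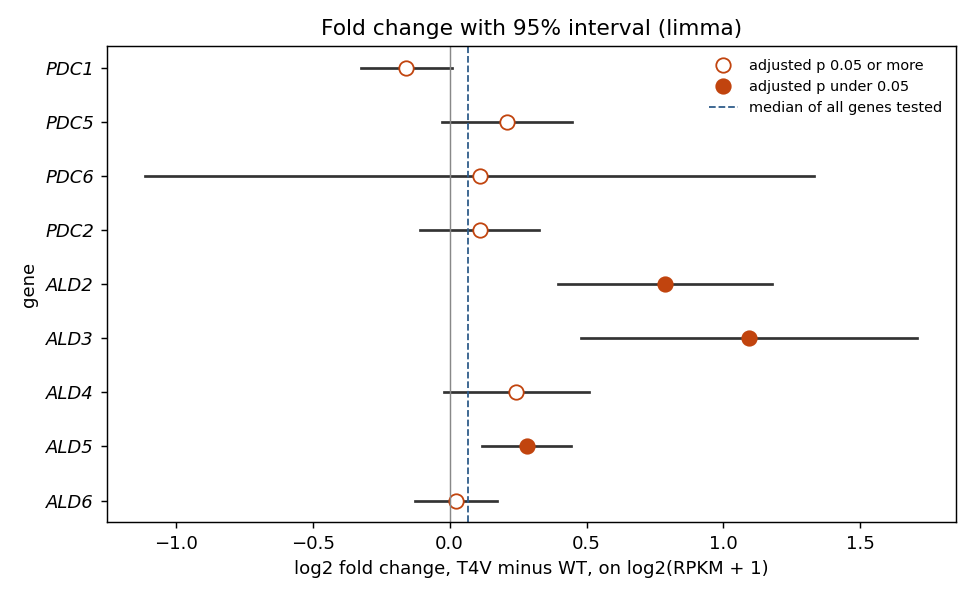
Log2 change of each gene, T4V minus WT, on the log2(RPKM + 1) scale, with its 95% interval from limma. Filled points passed the test, the dashed line marks the median of all genes tested at 0.07, and the interval of PDC6 is the widest, from -1.11 to 1.33.

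ALD4, the other mitochondrial enzyme gene, on chromosome XV at 1039840 to 1041399, had 117.1 and 124.6 RPKM in T4V libraries A and B, against 112.8 and 91.9 RPKM in WT libraries A and B. The groups did not overlap, but WT library A lay closer to the T4V libraries than to WT library B. The log2 change of ALD4 was 0.24 with a 95% interval of -0.02 to 0.51 (limma, adjusted p = 0.176). It was called higher by voom, a form of limma for read counts, on the recovered reads (log2 change 0.24, adjusted p = 0.0405), which called 28.2% of all genes tested.

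ALD6, the main acetate-forming enzyme gene, on chromosome XVI at 432588 to 434090, had 543.1 and 579.6 RPKM in T4V libraries A and B, against 560.7 and 544.3 RPKM in WT libraries A and B. It was the 1 member whose groups overlapped. Its log2 change was 0.02, with a 95% interval of -0.13 to 0.17 (limma, adjusted p = 0.841).

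The mix of aldehyde dehydrogenase RNA was led by ALD6 in every library. ALD6 made up 54.2% and 54.3% of the summed RPKM of ALD2 to ALD6 in T4V libraries A and B, against 58.4% and 59.7% in WT libraries A and B. ALD5 made up 31.0% and 31.3% in T4V libraries A and B, against 28.0% and 28.7% in WT libraries A and B. ALD2 and ALD3 stayed a small part of the mix, with ALD2 at 2.09% and 1.89% in T4V against 1.35% and 1.13% in WT, and ALD3 at 1.02% and 0.824% in T4V against 0.488% and 0.355% in WT. The ALD4 share was 11.7% in both T4V libraries, against 11.8% and 10.1% in WT libraries A and B, so its groups overlapped. The shares were not tested. The 2-sided exact permutation test, the one for a single value, has a smallest possible p of 0.333 with 2 libraries against 2.

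**Figure D3:**
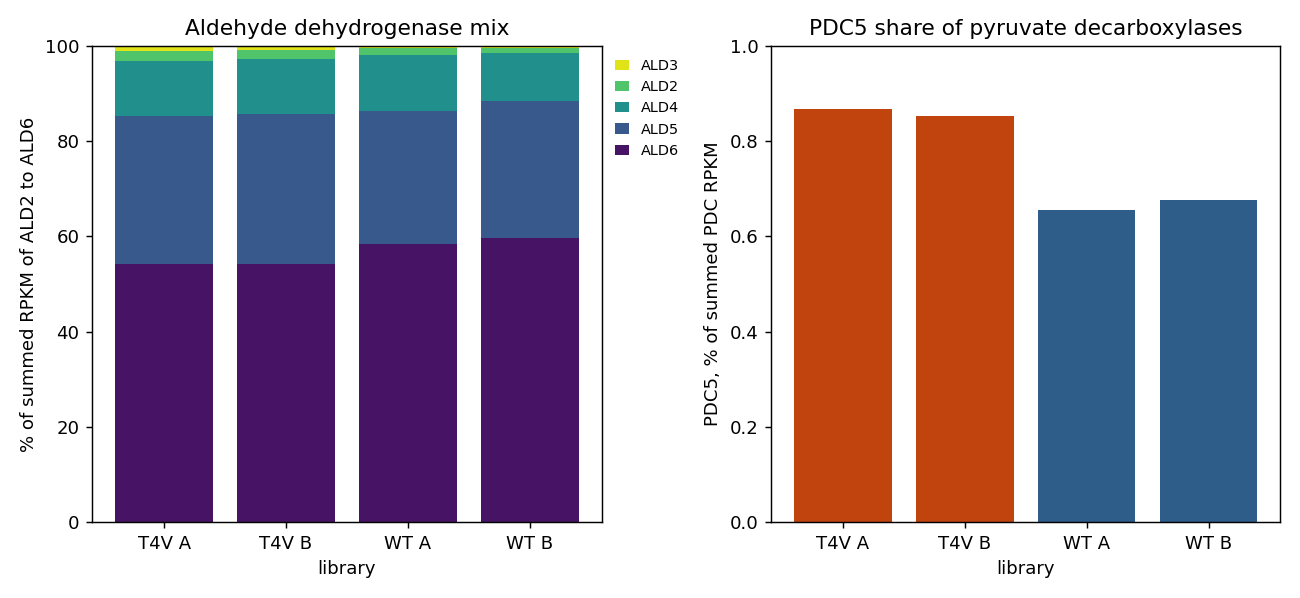
Left, the share of each gene in the summed RPKM of ALD2 to ALD6, stacked to 100% for each library, with the 2 T4V libraries to the left of the WT libraries. Right, PDC5 as a percentage of the summed RPKM of PDC1, PDC5 and PDC6, which is 0.868% and 0.852% in T4V and 0.656% and 0.676% in WT.

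PDC1, on chromosome XII at 232390 to 234081, was among the most abundant RNAs of the cells, at rank 23 of the 7126 genes in T4V and rank 22 in WT. It had 4969 and 5518 RPKM in T4V libraries A and B, against 5985 and 5704 RPKM in WT libraries A and B. Both T4V libraries were below both WT libraries, but T4V library B lay nearer to WT library B than to T4V library A. The log2 change was -0.16 with a 95% interval of -0.32 to 0.01 (limma, adjusted p = 0.168). Voom on the recovered reads called PDC1 lower (log2 change -0.16, adjusted p = 0.0163). After median-of-ratios scaling its log2 change was -0.22 (limma, adjusted p = 0.0783), while after quantile normalization its log2 change was 0.03 (limma, adjusted p = 0.709).

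PDC5, on chromosome XII at 410723 to 412414, had 43.5 and 47.4 RPKM in T4V libraries A and B, against 39.5 and 38.8 RPKM in WT libraries A and B. The groups did not overlap, and the log2 change of 0.21 had a 95% interval of -0.03 to 0.45 (limma, adjusted p = 0.196). The ratio of PDC1 to PDC5 was 114 and 116 in T4V libraries A and B, against 151 and 147 in WT libraries A and B. Shared bases could bear on the PDC5 level. How far depends on the read length and the handling of shared reads, which are not known here. The amounts below are for all reads of the shared PDC1 windows, and the part assigned to PDC5 was not tested. At the level of PDC1, the windows of 50 bases it shares with another place in the genome would hold 48.4 and 53.7 RPKM in T4V libraries A and B and 58.3 and 55.5 RPKM in WT libraries A and B, more than the whole PDC5 value. With windows of 36 bases the amounts are 117.0 and 129.9 RPKM in T4V libraries A and B and 140.9 and 134.2 RPKM in WT libraries A and B, and with windows of 100 bases they are 0.

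PDC6, on chromosome VII at 651290 to 652981, was close to the limit of detection, with 6 and 9 reads in T4V libraries A and B, against 7 and 6 reads in WT libraries A and B. These are 1.06 and 1.25 RPKM in T4V, against 1.02 and 0.970 RPKM in WT. The ratio of reads, T4V over WT and corrected for library size, was 1.17 with an exact binomial 95% interval of 0.519 to 2.67 that covers counting error only. A difference smaller than this interval was not detectable at this depth. A count of 0 would still allow up to 3 reads in a library, and every library held more than that.

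PDC2 encodes a transcription factor needed for full expression of PDC1, PDC5 and thiamine synthesis genes. The gene lies on chromosome IV at 607304 to 610081. It had 50.7 and 53.6 RPKM in T4V libraries A and B, against 48.0 and 48.5 RPKM in WT libraries A and B. Its log2 change of 0.11 had a 95% interval of -0.11 to 0.33 (limma, adjusted p = 0.441).

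By mean RPKM the order was PDC1, ALD6, ALD5, ALD4, PDC2, PDC5, ALD2, ALD3 and PDC6 in T4V and also in WT. Libraries of genes next to each other in this order did not overlap within either genotype. By the ratio of mean RPKM the closest pair was PDC2 and PDC5. They stood at 52.2 ± 1.99 and 45.5 ± 2.78 RPKM in T4V and 48.2 ± 0.351 and 39.2 ± 0.500 RPKM in WT (SD, n = 2 each). The T4V libraries lay wholly above the WT libraries for 7 of the 9 members and wholly below for PDC1. Over all genes tested, 38.6% lay wholly above and 23.4% wholly below, or 62.0% in all, and these genes share the same 4 libraries. The summed RPKM of the decarboxylases was 5.00 and 5.21 times that of the aldehyde dehydrogenases in T4V libraries A and B, against 6.28 and 6.30 times in WT libraries A and B.

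ALD3 was the called member with the largest change, and its profile over the 4 libraries was closest to those of YHI9, SPI1 and NQM1 among named genes with a mean of at least 10 RPKM. The Euclidean distances between mean-centred log2(RPKM + 1) values were 0.131 for YHI9, 0.133 for SPI1 and 0.173 for NQM1. SPI1 encodes a cell wall protein induced by stress, and NQM1 a relative of transaldolase. SPI1 had 114.7 and 108.7 RPKM in T4V libraries A and B, against 60.5 and 41.0 RPKM in WT libraries A and B. With 4 libraries in 2 groups, such likeness says little beyond a shared size of difference.

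The sequences before ALD2 and ALD3 are printed because these neighbours were called in the same direction, from 400 to 101 bases before each start codon, as read on the coding strand. Capitals mark AGGGG, the stress response element bound by Msn2 and Msn4, and CCAAT, the box bound by the Hap complex, on either strand.
ALD2 chrXIII:603183-603482 minus strand: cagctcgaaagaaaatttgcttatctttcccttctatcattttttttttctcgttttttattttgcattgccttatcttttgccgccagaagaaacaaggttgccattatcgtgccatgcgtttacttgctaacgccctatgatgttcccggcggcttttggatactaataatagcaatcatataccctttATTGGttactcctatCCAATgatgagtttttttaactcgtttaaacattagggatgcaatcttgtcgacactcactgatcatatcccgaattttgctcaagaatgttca
ALD3 chrXIII:600973-601272 minus strand: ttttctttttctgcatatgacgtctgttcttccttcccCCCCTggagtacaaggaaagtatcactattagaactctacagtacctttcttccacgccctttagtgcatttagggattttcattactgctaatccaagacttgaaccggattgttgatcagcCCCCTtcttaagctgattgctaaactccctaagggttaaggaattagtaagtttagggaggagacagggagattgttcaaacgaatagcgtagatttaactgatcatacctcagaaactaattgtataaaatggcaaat
ALD3 held AGGGG on the opposite strand at 362 and 239 bases before its start codon, and ALD2 held none in this window. ALD2 held CCAAT matches at 209 and 194 bases, and ALD3 none. CCAAT also occurred in the windows of PDC2, at 276 and 130 bases, and PDC6, at 125 bases. AGGGG also occurred in the windows of PDC1, PDC5, ALD4, ALD5 and ALD6, and it occurs in 23.5% of all 6005 windows of this kind. At least 2 AGGGG matches, as in ALD3 and ALD4, occur in 4.13% of windows. CCAAT occurs at least once in 44.0% of windows. At least 2 CCAAT matches, as in ALD2 and PDC2, occur in 12.3%. The window was chosen after the matches were seen, and a match is a string of letters, not a shown binding site.

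The genes next to the members were compared at the same loci. CEP3, a kinetochore protein gene that follows ALD3 on the same strand after 193 bases, was lower in T4V, opposite in direction to ALD3. It had 11.7 RPKM in both T4V libraries, against 24.9 and 27.0 RPKM in WT libraries A and B, a log2 change of -1.08 ± 0.14 (SE, n = 2 each; limma, adjusted p = 0.00405). EAR1, on the other side of the pair, 785 bases upstream of ALD2, had a log2 change of 0.06 (limma, adjusted p = 0.751). The calls along this stretch therefore changed from higher at ALD2 and ALD3 to lower at CEP3.

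STU2, a microtubule protein gene that lies 955 bases upstream of PDC1, had 9.83 and 8.71 RPKM in T4V libraries A and B, against 20.5 and 23.3 RPKM in WT libraries A and B. Its log2 change was -1.15 (limma, adjusted p = 0.00554). VTC1, a polyphosphate synthesis gene 834 bases upstream of ALD5, had 564.8 and 548.8 RPKM in T4V libraries A and B, against 230.7 and 204.9 RPKM in WT libraries A and B, a log2 change of 1.35 (limma, adjusted p = 0.000223). Without T4V library A or T4V library B, limma called neither CEP3 nor STU2, at log2 changes of -1.18 to -1.03 for CEP3 and -1.30 to -1.07 for STU2 over all settings tried, with limma adjusted p of 0.0844 to 0.0942 in those 4 fits. VTC1 was not called without T4V library A, at 1.33 (limma, adjusted p = 0.0586). The nearest genes of PDC5, PDC6, PDC2 and ALD4 did not pass the test, and neither did RPS24A downstream of ALD5, TRX1 downstream of PDC1 or MFM1 downstream of ALD6.

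**Figure D4:**
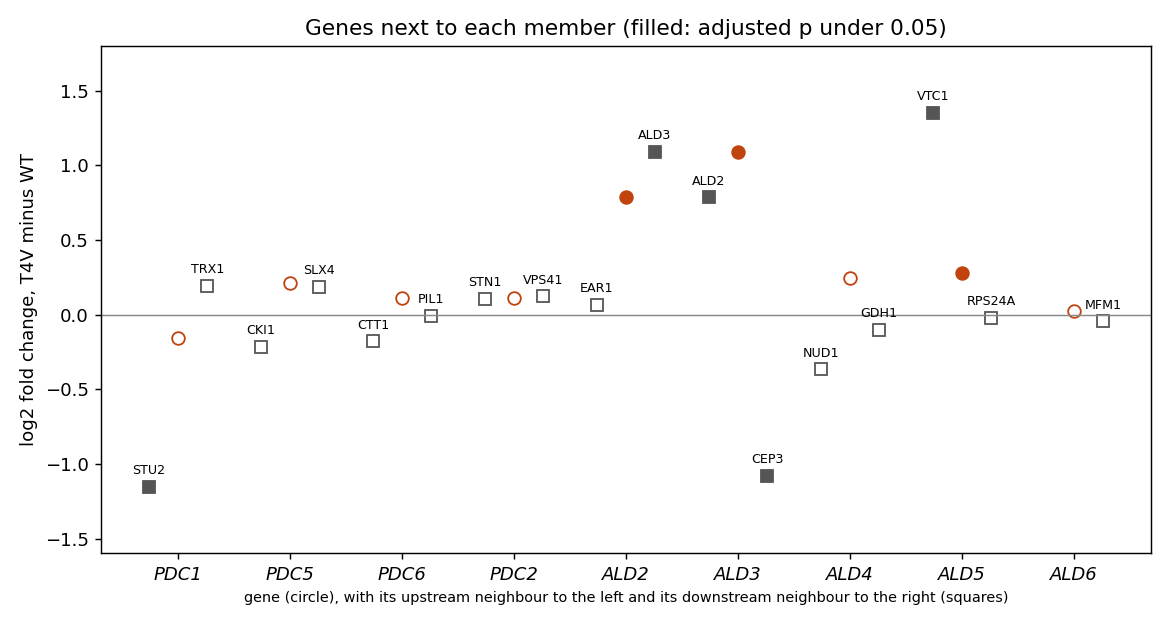
Log2 change, T4V minus WT, of each gene (circle) and of the nearest annotated gene upstream (square to the left) and downstream (square to the right). Filled symbols passed the test, with STU2 and CEP3 lower and VTC1 higher, and the gene upstream of ALD6 is missing because it was too low to test.

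Other genes that make, use or transport pyruvate, or regulate its use, were taken from a list of 20. Of these, 3 rose, none was called lower and 17 did not pass, with a median log2 change of 0.13. For this list and those below, the values over all genes tested were 11.7% called higher, 6.25% called lower and a median of 0.07. MPC1 (YGL080W, FMP37 in the table), a subunit of the mitochondrial pyruvate carrier, rose to 66.7 and 64.5 RPKM in T4V libraries A and B, against 40.0 and 47.3 RPKM in WT libraries A and B, a log2 change of 0.58 (limma, adjusted p = 0.0152). MPC2 (YHR162W), the other subunit made with it on fermentable sugar, rose to 467.7 and 433.9 RPKM, against 307.6 and 301.7 RPKM in WT, a log2 change of 0.56 (limma, adjusted p = 0.00327). PDA1, the alpha subunit of the pyruvate dehydrogenase that competes with Pdc1 for pyruvate, rose by 0.27. Its log2 change was still 0.20 after median-of-ratios scaling and 0.22 after quantile normalization, where the call was lost (limma, adjusted p = 0.0717 and 0.0561). CDC19, the pyruvate kinase gene that makes the substrate, stood at 6755 RPKM in T4V and 6479 RPKM in WT, with a log2 change of 0.06 (limma, adjusted p = 0.503).

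Acetaldehyde can also go to ethanol, and of 7 alcohol dehydrogenase genes tested 1 rose and 2 fell, with a median log2 change of 0.14. ADH1 had 885.3 and 844.2 RPKM in T4V libraries A and B, against 2221 and 2199 RPKM in WT libraries A and B, while ADH4 had 2567 and 2683 RPKM in T4V, against 1161 and 1239 RPKM in WT. ADH3, a mitochondrial form, fell by 0.58 on the log2 scale. ADH2, the form used to consume ethanol, was not tested, with under 0.6 RPKM in each library.

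Of 11 acetyl-CoA and acetate genes tested 1 rose and 2 fell, with a median of 0.06. YAT2, a carnitine acetyltransferase gene, rose by 0.85, ATO3, a putative ammonium exporter gene, fell by 0.70, and ACC1, the acetyl-CoA carboxylase gene, fell by 0.24. ACS2, the acetyl-CoA synthetase gene used on glucose, had a log2 change of -0.25 (limma, adjusted p = 0.0657), and ACS1 stood at 3.93 RPKM in T4V and 2.83 RPKM in WT. Among 7 genes of other aldehyde dehydrogenases and relatives of the decarboxylases, MSC7 rose by 0.39 and PRO2, a proline synthesis gene, fell by 0.59. The other 5 did not pass, and the median was 0.24.

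Thiamine pyrophosphate is the cofactor of pyruvate decarboxylase, and Pdc2 acts on thiamine genes. Of 13 thiamine genes tested 1 rose, PET18 by 0.75, and the median was 0.19. THI4, the thiazole synthesis gene, stood at 3.91 RPKM in T4V and 2.77 RPKM in WT (limma, adjusted p = 0.511). THI5, THI11, THI12 and THI13, near-identical copies of each other, were each under 1.2 RPKM and were not tested.

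Of 12 genes for other sources of NADPH, the product of the Ald6 reaction, 4 rose and none was called lower, with a median of 0.25. IDP2, the cytosolic NADP-dependent isocitrate dehydrogenase gene, had 48.8 and 43.2 RPKM in T4V libraries A and B, against 18.5 and 13.7 RPKM in WT libraries A and B, a log2 change of 1.47 (limma, adjusted p = 0.00272). IDP1, its mitochondrial relative, rose by 0.74, and SOL4 and POS5, a lactonase of the pentose phosphate pathway and a mitochondrial NADH kinase, rose by 0.48 and 0.39. SOL4 lost its call after quantile normalization (0.41, limma adjusted p = 0.0527).

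Of 22 regulators of glycolytic, respiratory and stress genes, 4 rose and none was called lower, with a median of 0.01. The counts were 1 higher and 1 lower after median-of-ratios scaling and also after quantile normalization, and 6 and 2 with voom. HAP4, the activating subunit of the Hap complex, rose by 0.38, and GCR2, MSN4 and YAP1 rose by 0.30, 0.36 and 0.34. These last 3 lost their calls after median-of-ratios scaling, at log2 changes of 0.24, 0.30 and 0.28 (limma, adjusted p = 0.0803, 0.0788 and 0.0763), and after quantile normalization, at 0.24, 0.31 and 0.27 (limma, adjusted p = 0.0878, 0.0757 and 0.0865). Of 14 genes of polyamine, beta-alanine and pantothenate synthesis, the route Ald2 and Ald3 feed, PAN5 rose by 0.37 and CAB4 fell by 0.51, and the median was -0.11. PAN5 lost its call after quantile normalization (0.29, limma adjusted p = 0.0505). Genes of this list called lower numbered 3 after quantile normalization and 3 after median-of-ratios scaling. FMS1, which supplies the aldehyde for beta-alanine, had a log2 change of -0.28 (limma, adjusted p = 0.206). Over all 105 listed genes tested, 16 rose and 6 fell, beside the 11.7% and 6.25% of all genes. With either T4V library left out, limma called 2 of these genes, ADH1 and ADH4. PDA1, ACC1, ADH3, ATO3, GCR2, HAP4, MSN4, YAP1, PAN5, POS5 and SOL4 also lost their calls without WT library A, and ACC1, GCR2, MSC7, MSN4, YAP1, PAN5 and SOL4 without WT library B.

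**Figure D5:**
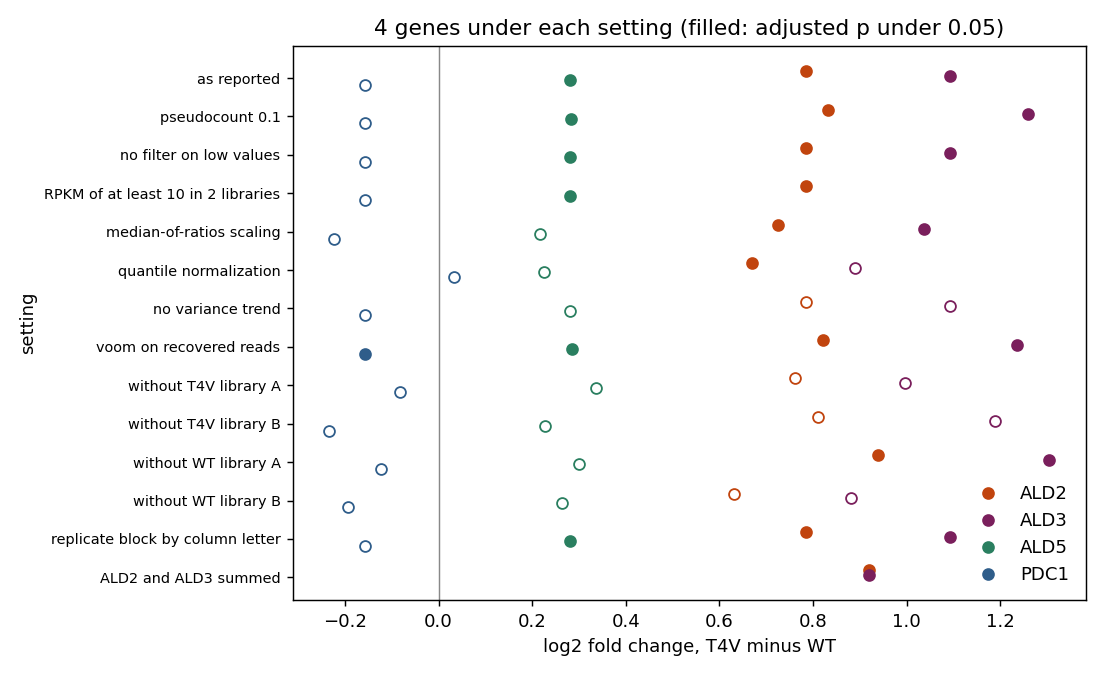
Log2 change, T4V minus WT, of ALD2, ALD3, ALD5 and PDC1 under each setting tried, with filled points at a limma adjusted p under 0.05. The ALD points stay above 0 in every row, and those of PDC1 lie below 0 except at 0.03 after quantile normalization.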

How the data were processed

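Poly(A) RNA of 2 T4V and 2 WT libraries was sequenced. Bowtie2 and the sacCer3 assembly are named in the submitters' processing notes. Per the file headers, the authors deposited RPKM values, 1 column per library. No source used here gives the counting program, annotation, read length or strand setting. Of 7126 genes, 6048 matched RefSeq R64, which sacCer3 is made from, by systematic name.

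Low RPKM values were whole multiples of 1 read, so reads were recovered from exonic length and library size. Between 99.4% and 99.6% of genes with up to 20 reads came out within 0.1 of a whole number. Per kilobase of gene, 1 read equalled 0.235 to 0.298 RPKM. PCR reads are not independent molecules, so read intervals cover counting error only.

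The test was limma 3.58.1 in R 4.3.3 on log2(RPKM + 1) with an abundance trend, 2-sided, tested on simulated data. Genes had to reach 1 RPKM in 2 or more libraries. Sequences came from the R64 genome, read with Biopython 1.88. Alternatives changed the pseudocount, filter, scaling, trend and test, left out each library and blocked on the column letter. Genes named were the members, up to 4 called genes per list, nearest genes and the 3 profiles closest to ALD3. Other genes named were chosen after their values were seen. Members and lists were chosen with earlier results of these data known.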

Additional observations from a re-analysis of the deposited data

How the results depend on the processing

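The columns carry letters but no replicate number, and no label says that A or B marks a shared culture or day. The differences between libraries A and B in T4V and in WT had a Pearson correlation of -0.015 over 5935 genes. A replicate block on the letter, added after the columns were seen, gave 3 members higher and 0 lower, 21 listed genes called, and 744 genes higher and 393 lower in all. Of the named genes ACC1, GCR2, MSN4 and YAP1 were not called in it. Members called higher numbered 3, but 2 after median-of-ratios scaling, 1 after quantile normalization and 0 with limma without the variance trend. They numbered 2 where an RPKM of at least 10 in 2 libraries was required, which ALD3 did not reach. With voom on recovered reads they numbered 4, where 28.2% of all genes were called. Members called lower numbered 0 in each limma fit on log2(RPKM + 1) and 1 with voom (PDC1). At an unadjusted p under 0.05 no member was lower with the reported settings. By that measure 1 member, PDC1, was lower after median-of-ratios scaling, without T4V library B and without WT library B. Genes called over the pathway lists numbered 22, but 8 without the variance trend and 39 with voom. They numbered 19 without the filter on low values, 24 with the RPKM filter of 10 and 20 after quantile normalization. Leaving out 1 library gave 0 to 2 members higher and 0 lower, and it gave 2 listed genes without T4V library A or B, 13 without WT library A and 17 without WT library B. Leaving out either T4V library left no member called. Calls over all genes then numbered 10 higher and 6 lower, or 17 and 10. The 3 called members kept a positive log2 fold change under each alternative, at 0.63 to 0.94 for ALD2, 0.88 to 1.30 for ALD3 and 0.22 to 0.34 for ALD5. The cause of lost calls was not tested.

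Changes of sign occurred only among genes that were not called with the reported settings. After median-of-ratios scaling ALD6 stood at -0.042. After quantile normalization PDC1 stood at 0.032, PDC6 at -0.22, ALD6 at -0.037, PIL1 at 0.016, GDH1 at 0.032 and RPS24A at 0.18. Without T4V library A STN1 stood at -0.017. Without T4V library B ALD6 stood at -0.024, EAR1 at -0.038 and MFM1 at 0.18. Without WT library A CKI1 stood at 0.024 and CTT1 at 0.0059. Without WT library B PIL1 stood at 0.0042, EAR1 at -0.045, RPS24A at 0.067 and MFM1 at 0.24. ALD3 and PDC6 gave no value where an RPKM of at least 10 in 2 libraries was required. Depth limits PDC6 and, less so, ALD3.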
